A study of Homo sapiens with 2 samples.

Results

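SRRM2, SON and SRRM1 are large serine/arginine-rich proteins of nuclear speckles, the bodies beside active chromatin where splicing factors collect. SRRM2 and SON form the core on which speckles are built, and SRRM1 is a splicing coactivator that works with SRRM2 and associates with the exon junction complex. In SRRM2 and SON most of the protein, including its long serine/arginine-rich repeats, is encoded by a single very long exon. The data described here are the sites listed on these 3 RNAs in crosslinking experiments on FLAG-tagged SOX2. SOX2 is a transcription factor that binds DNA through an HMG box, and the series it belongs to concerns a putative RNA-binding motif of SOX2.

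Sites were chosen by position: every site on the plus strand that overlapped 2802001 to 2822000 on chromosome 16 (SRRM2), 34915001 to 34950000 on chromosome 21 (SON) or 24969001 to 25000000 on chromosome 1 (SRRM1), all on hg19. This gave 36 of the 16964 sites of replicate 1 and 116 of the 55830 sites of replicate 2, 152 of 72794 in all. The genes were picked with earlier results of these lists known, among them many sites at SRRM2, so the number of sites per gene is a description and was not tested.

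The method was PAR-CLIP, in which a photoreactive uridine is built into RNA, long-wave ultraviolet light joins it to bound protein, and the RNA that comes down with that protein is sequenced. Both samples were HEK293T cells, a human embryonic kidney line, transfected with a plasmid for FLAG-tagged SOX2 and fed 0.2 mM 4-thiouridine for 16 hours before 365 nm light at 0.4 J/cm2. The bound RNA was trimmed with RNase T1, which cuts after guanosine. Both samples form 1 group, so the spread between replicates is the only spread available. SOX2 was thus tagged and supplied from a plasmid, no control library is used here, and neither the abundance of the 3 RNAs nor background crosslinking was measured. Site lists hold no expression values, so the cell line was not checked against marker genes.

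The exons themselves give a picture of the RNA in question. In the main GENCODE 29 transcript of SRRM2, exon 11 is 6701 nt long and makes up 71.7% of the 9353 nt mRNA. Exon 3 of SON is 5916 nt long, or 67.1% of an 8813 nt mRNA. SRRM1 has no such exon: the longest coding exon of its 4011 nt transcript is exon 14, with 465 nt. Codons for serine or arginine made up 41.4% of codons in SRRM2 exon 11 against 35.7% in the rest of its coding sequence, 22.5% in SON exon 3 against 11.7%, and 42.2% in SRRM1 exon 14 against 30.6%. Thymidine, read as uridine in the RNA and the base that 4-thiouridine replaces, made up 19.9% of SRRM2 exon 11 against 19.0% of the rest of the transcript, 23.2% of SON exon 3 against 26.4%, and 17.6% of SRRM1 exon 14 against 23.6%.

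The stretch of 40 codons with the most serine and arginine codons in each of these exons follows as DNA letters. It was picked by that count alone, so it does not stand for the repeats as a whole. Capitals mark codons for serine or arginine, of which there are 34 in SRRM2, 31 in SON and 20 in SRRM1. These are stretches of the reference transcripts and not the sequences of sites, since no genome sequence on hg19 was used.
SRRM2: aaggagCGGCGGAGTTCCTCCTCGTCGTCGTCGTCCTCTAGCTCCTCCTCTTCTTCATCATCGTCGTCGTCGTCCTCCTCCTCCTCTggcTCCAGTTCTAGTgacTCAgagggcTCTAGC
SON: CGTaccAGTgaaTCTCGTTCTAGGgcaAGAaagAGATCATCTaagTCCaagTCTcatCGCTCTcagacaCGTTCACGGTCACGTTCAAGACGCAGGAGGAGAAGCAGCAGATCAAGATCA
SRRM1: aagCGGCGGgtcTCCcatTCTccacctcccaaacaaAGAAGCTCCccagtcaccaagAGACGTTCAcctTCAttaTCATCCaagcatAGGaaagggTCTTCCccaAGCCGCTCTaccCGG
They lie at bases 8131 to 8250 of the SRRM2 transcript, 5990 to 6109 of the SON transcript and 2209 to 2328 of the SRRM1 transcript. The SRRM2 stretch is mostly serine codons and holds 36 thymidines, while the SON stretch mixes serine and arginine codons and holds 23, and the SRRM1 stretch holds 22.

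SRRM2 and SON carried many sites in both replicates, and SRRM1 carried almost none. SRRM2 had 19 sites in replicate 1 and 74 in replicate 2, SON had 16 and 39, and SRRM1 had 1 and 3. Per kb of interval this was 0.95 and 3.7 sites for SRRM2, 0.457 and 1.11 for SON, and 0.0323 and 0.0968 for SRRM1. The intervals of 20, 35 and 31 kb are genomic and much longer than the transcripts of 9353, 8813 and 4011 nt. Densities per kb of interval thus depend on intron length and do not compare the 3 mRNAs. The order of the 3 genes was the same in both replicates. Replicate 2 listed 3.22-fold as many sites as replicate 1 over the 3 genes, close to the 3.29-fold over the whole lists. By gene the ratio was 3.89 for SRRM2, 2.44 for SON and 3 for SRRM1.

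As a share of all sites of a list, SRRM2 took 0.122% ± 0.0145 and SON 0.0821% ± 0.0173, while SRRM1 took 0.00563% ± 0.000369 (SD, n = 2 each). The SRRM2 shares of 0.112% and 0.133% lay above both SON shares of 0.0943% and 0.0699%. Each site carries a score from the authors, in whole numbers from 5 upwards; what it counts is not stated. SRRM2 held 0.097% ± 0.0149 and SON 0.0802% ± 0.031 of the score of a list (SD, n = 2 each). SRRM2 held more than SON within each list, with 0.0865% against 0.0583% in replicate 1 and 0.108% against 0.102% in replicate 2, but the ranges over replicates overlapped. SRRM1 held 0.00324% ± 0.000651. With the 10 strongest sites of each list left out of the sums, the shares were 0.19% ± 0.0355 for SRRM2, 0.15% ± 0.00814 for SON and 0.00627% ± 0.000874 for SRRM1 (SD, n = 2 each). None of those 10 lay on the 3 genes, so this raised the shares of the 3 genes in a list by the same factor.

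No site lay on the opposite strand of any of the 3 intervals in either list. Zero counts beside 36 and 116 plus-strand sites allow opposite-strand sites at up to 8.33% and 2.59% of these numbers, counting error only. The sites were as short as elsewhere, with a median of 17.5 nt in replicate 1 and 18 nt in replicate 2, against 16 and 17 nt over the whole lists. Their scores were higher than the usual site. Over the 3 genes the median was 102.5 in replicate 1, against 26 over its whole list, and 54.5 in replicate 2, against 19. Scores of at least 100 were reached by 50% and 28.4% of the sites on the 3 genes, against 14.8% and 7.34% of all sites.

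Along the genomic interval, introns included, the sites of SRRM2 were concentrated in the middle. Pooled over both lists, sites formed 6 stretches separated by at least 1 kb without a site, a distance chosen after the positions were seen. The fifth of these, from 2811555 to 2818234, held 13 of the 19 sites of replicate 1 (68.4%, 95% Wilson interval 46.0 to 84.6) and 48 of the 74 sites of replicate 2 (64.9%, 53.5 to 74.8). The stretch rests on replicate 2: drawn from the sites of replicate 1 alone, it ran from 2815659 to 2816926 and held 36.8% of them. It was 6680 nt long with both lists, beside an exon 11 of 6701 nt. Exons were not placed on the hg19 positions, because the annotation at hand is on GRCh38 and builds were not mixed, so which sites lie inside exon 11 was not determined. The site-free gaps on its sides measured 1208 and 1358 nt.

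Sites in this SRRM2 stretch also had the higher median scores. Their median was 128 in replicate 1, against 40.5 in the rest of the interval, and 74.5 in replicate 2, against 29.5. Strong sites also lay outside the stretch, with scores of 246 and 226 in replicate 2. The stretch took 92.1% of the SRRM2 score in replicate 1 and 75.7% in replicate 2. Its score sums were nearly equal, 4275 and 4231, although replicate 2 divided its sum over 48 sites and replicate 1 over 13. The mean score per site in the stretch was therefore 329 in replicate 1 and 88.1 in replicate 2. Neighbouring sites of score 1223 and 1040 gave a large part of the replicate 1 sum. The replicate 2 site at that place scored 141, so the near-equal sums do not mean like signal along the stretch.

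**Figure D1:**
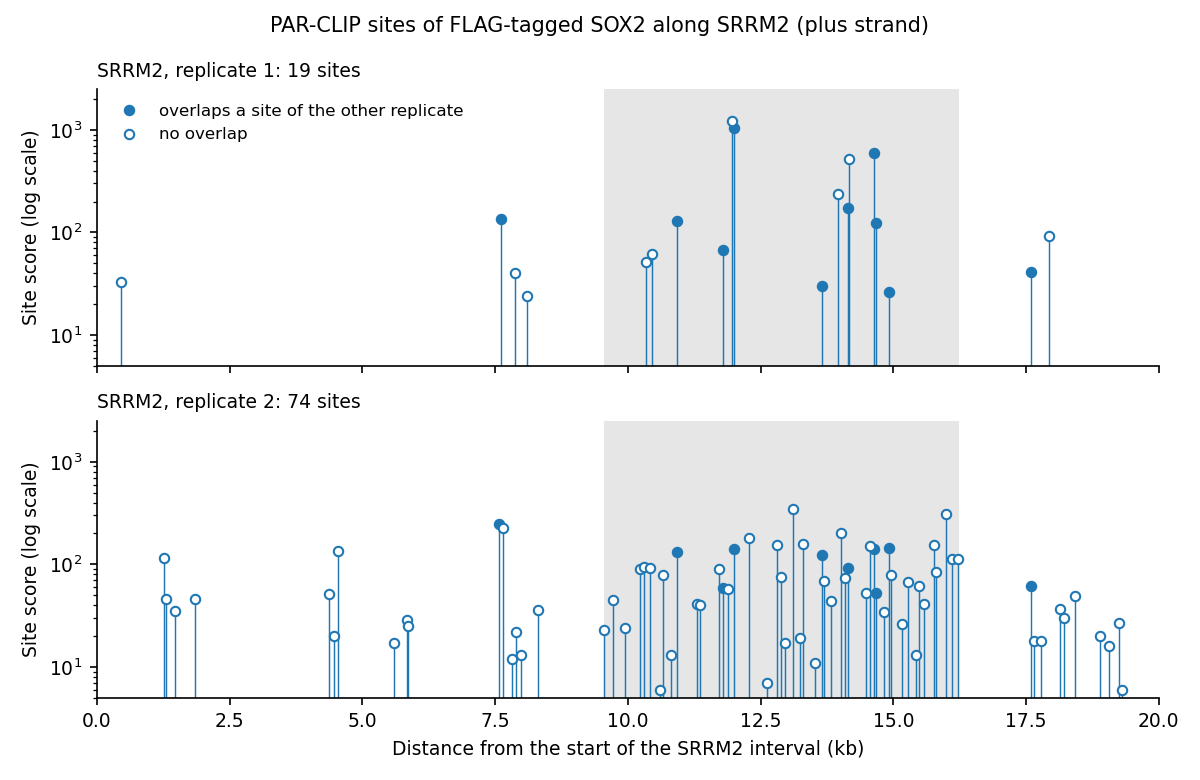
Score of each SRRM2 site (log axis) against distance from the start of the interval in kb, replicate 1 above and replicate 2 below. Filled points overlap a site of the other replicate, open points do not, and the grey band is the stretch of 6680 nt with 13 and 48 sites.

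Upstream of the dense stretch replicate 2 listed more sites than replicate 1, as it did over the whole of SRRM2 with 74 against 19. The first 3 stretches, from 2802455 to 2807874, held 1 site in replicate 1 and 10 in replicate 2 with scores of at most 134. The next stretch, from 2809580 to 2810346, held 3 and 6 sites. Downstream, from 2819593 to 2821326, there were 2 sites in replicate 1 and 10 in replicate 2. In 1 kb windows the densest was the same in both replicates, 2816001 to 2817000, with 5 and 10 sites. Of all 1 kb windows with a site, 22 of 15622 in replicate 1 and 10 of 42098 in replicate 2 held as many.

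The 3 strongest SRRM2 sites of replicate 1 were at 2813958 to 2813971 with a score of 1223, at 2813991 to 2814027 with 1040, and at 2816631 to 2816646 with 591. In replicate 2 they were at 2815120 to 2815136 with 346, at 2817991 to 2818005 with 307, and at 2809580 to 2809625 with 246. The lists thus did not share their strongest site on SRRM2. No replicate 2 site overlapped the replicate 1 site of score 1223, whose nearest neighbour began 36 nt downstream with a score of 141. The replicate 2 site of score 346 lay 523 nt from the nearest replicate 1 site, and that of score 307 lay 1065 nt away.

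In SRRM2, 10 pairs of sites overlapped between replicates, 8 of them in the dense stretch. Some matched nearly base for base with like scores. The sites at 2812929 to 2812945 and 2812931 to 2812945 scored 128 in replicate 1 and 132 in replicate 2. Those at 2813793 to 2813814 and 2813794 to 2813812 scored 67 and 59. Those at 2819593 to 2819610 and 2819597 to 2819614, in the downstream stretch, scored 41 and 61.

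Other SRRM2 pairs matched in place but not in score. The sites at 2816631 to 2816646 and 2816632 to 2816645 differed by 1 nt at each edge, yet scored 591 in replicate 1 and 141 in replicate 2. Those at 2815659 to 2815672 and 2815661 to 2815679 went the other way, with 30 and 122. The pair at 2813991 to 2814027 and 2814007 to 2814048 had 1040 and 141, the widest gap on SRRM2, and its edges were 16 and 21 nt apart. The loosest of the 10 was at 2816913 to 2816926 and 2816921 to 2816950, with 6 nt in common and scores of 26 and 145. These differences run in both directions, with 5 pairs higher in each replicate.

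The remaining SRRM2 pairs differed less. The sites at 2816142 to 2816171 and 2816138 to 2816167, shifted by 4 nt, scored 173 in replicate 1 and 92 in replicate 2. Those at 2816670 to 2816694 and 2816667 to 2816685 scored 124 and 52. Upstream of the dense stretch, those at 2809604 to 2809629 and 2809580 to 2809625 scored 136 and 246.

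SON showed a dense stretch of its own, nearer to the upstream end of its interval. The sites of both lists again fell into 6 stretches at least 1 kb apart. The third, from 34922047 to 34927140, was 5094 nt long, beside an exon 3 of 5916 nt, and was not placed on that exon for the reason given for SRRM2. It held 7 of 16 sites in replicate 1 (43.8%, interval 23.1 to 66.8) and 26 of 39 in replicate 2 (66.7%, 51.0 to 79.4). These sites took 79.3% and 67.4% of the SON score. Site-free gaps of 1685 and 2389 nt bounded it. The length of 5094 nt rests on replicate 2. Drawn from the sites of replicate 1 alone, the SON stretch ran from 34924132 to 34927140, or 3009 nt, and held 37.5% of them.

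The rest of the SON interval held 9 sites in replicate 1 and 13 in replicate 2. From 34929530 to 34931638 there were 5 sites in replicate 1 and 6 in replicate 2. From 34941462 to 34942508 there were 2 in each, and from 34948924 to 34949770 there were 2 and 3. The densest 1 kb window of SON differed between the lists. It was 34929001 to 34930000 in replicate 1, with 3 sites, and 34924001 to 34925000 in replicate 2, with 8 sites. Median scores in the SON stretch and outside it had no common order, with 112 against 62 in replicate 1 and 35 against 72 in replicate 2.

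**Figure D2:**
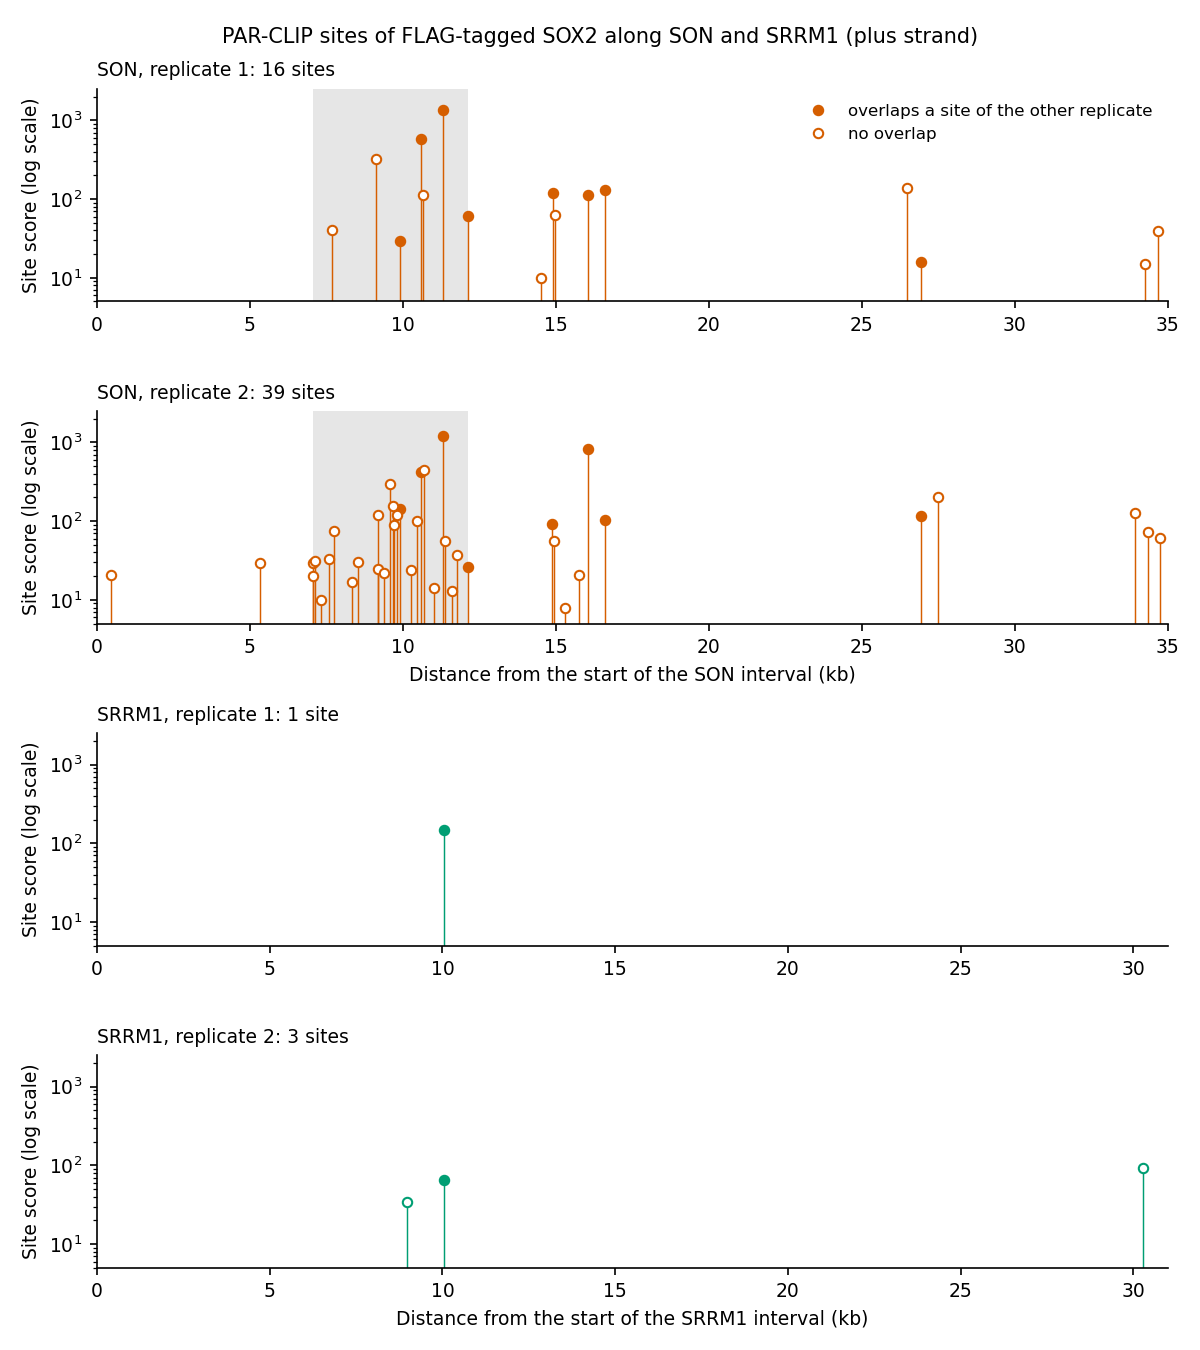
Score of each SON site (upper pair of panels) and SRRM1 site (lower pair) on a log axis against distance from the start of its interval in kb, by replicate. Filled points overlap a site of the other replicate, the grey band is the SON stretch of 5094 nt with 7 and 26 sites, and SRRM1 shows 1 and 3 sites.

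Unlike SRRM2, SON had the same strongest site in both lists. It lay at 34926310 to 34926328 in replicate 1, with a score of 1337, and at 34926298 to 34926324 in replicate 2, with 1213. It was also the strongest of all sites on the 3 genes and ranked 210 in list 1 and 234 in list 2. The next in replicate 1 were at 34925605 to 34925619, with 574, and at 34924132 to 34924151, with 326. In replicate 2 they were at 34931062 to 34931078, with 817, and at 34925690 to 34925708, with 450.

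Overlapping pairs numbered 8 on SON, 4 of them in the dense stretch. The sites at 34925605 to 34925619 and 34925604 to 34925619 scored 574 in replicate 1 and 420 in replicate 2. Those at 34927125 to 34927140 and 34927119 to 34927140, at the downstream end of the stretch, ended on the same base and scored 61 and 26. Those at 34924909 to 34924931 and 34924904 to 34924920 scored 29 and 144. With the strongest site, the stretch thus held pairs of both like and unlike score.

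Beyond the stretch, SON sites at 34931619 to 34931638 and 34931613 to 34931630 scored 132 in replicate 1 and 104 in replicate 2. Those at 34929894 to 34929913 and 34929883 to 34929896 scored 121 and 93 with 3 nt in common. Replicate 2 was far higher in the other two pairs. The pair at 34931047 to 34931068 and 34931062 to 34931078 had scores of 114 and 817, and the pair at 34941923 to 34941936 and 34941921 to 34941936 had 16 and 117.

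**Figure D3:**
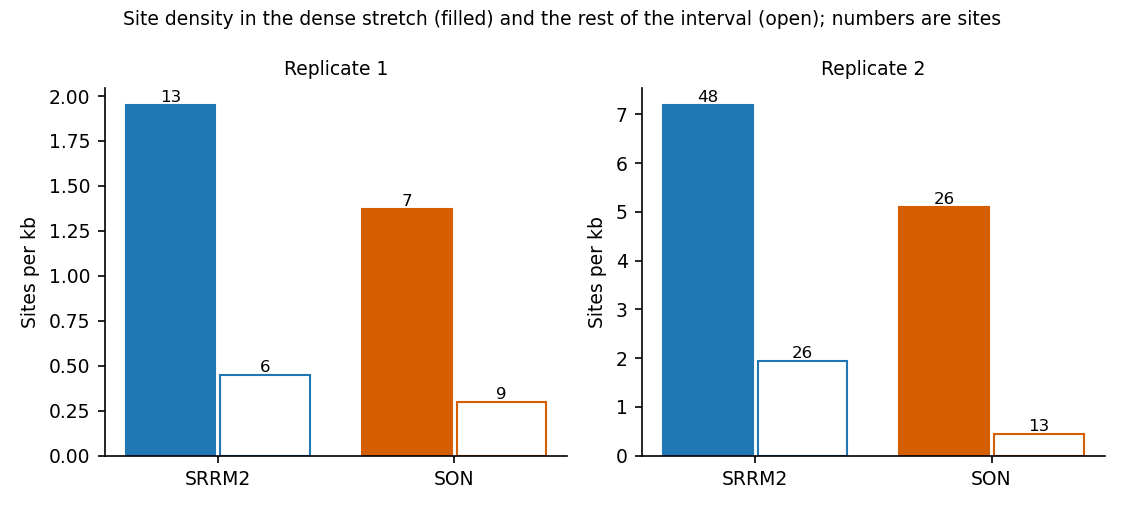
Sites per kb in the dense stretch (filled bars) and in the rest of the interval (open bars) of SRRM2 and SON, replicate 1 left and replicate 2 right on separate axes, with the number of sites above each bar. The stretches were drawn around the sites, so their higher density follows from how they were chosen. The rest of each interval includes introns.

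Inside the SRRM2 stretch there were 1.95 sites per kb in replicate 1, against 0.45 in the rest of the interval, and 7.19 in replicate 2, against 1.95. For SON the densities were 1.37 against 0.301 in replicate 1 and 5.1 against 0.435 in replicate 2. The rest of each interval holds introns as well as exons, so these densities do not compare parts of the mRNA. In replicates 1 and 2 the stretches held 68.4% and 64.9% of SRRM2 sites and 43.8% and 66.7% of SON sites. The long exons make up 71.7% of the SRRM2 mRNA and 67.1% of the SON mRNA. A concentration of sites per base of mRNA was not tested. In replicate 2, sites covered 14.2% of the bases of the SRRM2 stretch and 10.1% of the SON stretch. In replicate 1 they covered 3.88% and 2.45%.

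SRRM1 was nearly empty of sites over 31 kb. Its only site in replicate 1 lay at 24979037 to 24979053, with a score of 149. Replicate 2 had a site at 24979035 to 24979053 with a score of 65, so this site was found in both and ended on the same base. The other two sites of replicate 2 were at 24977968 to 24977994, with a score of 34, and at 24999289 to 24999308, with 93. With 1 and 3 sites, no pattern along SRRM1 can be described.

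The replicates were then compared site by site. Of the sites on the 3 genes, 19 of 36 in replicate 1 (52.8%, interval 37.0 to 68.0) overlapped a replicate 2 site by at least 1 nt, against 21.3% of the whole list. Of the 116 sites of replicate 2, 19 (16.4%, 10.7 to 24.2) overlapped, against 6.5% of the whole list. By gene, SRRM2 had 10 of 19 in replicate 1 (52.6%, 31.7 to 72.7) and 10 of 74 in replicate 2 (13.5%, 7.51 to 23.1), and SON had 8 of 16 (50.0%, 28.0 to 72.0) and 8 of 39 (20.5%, 10.8 to 35.5). All sites outside the 3 genes, weighted to the score classes of the sites on them, overlapped at 36.0% in replicate 1 and 13.1% in replicate 2. The replicate 2 value lay inside the interval of the 3 genes together, and the replicate 1 value just under it. Weighted to the sites of 1 gene, the other sites overlapped at 37.7% (SRRM2) and 33.5% (SON) in replicate 1 and at 12.1% and 15.2% in replicate 2, each inside the interval of that gene. Sites of 1 transcript are not independent, so these intervals are too narrow, and no difference was tested. The weighting covered the score and not the density of sites. Replicate 2 sites covered 14.2% of the bases of the SRRM2 stretch and 10.1% of the SON stretch. The part of this density in the overlap was not tested.

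**Figure D4:**
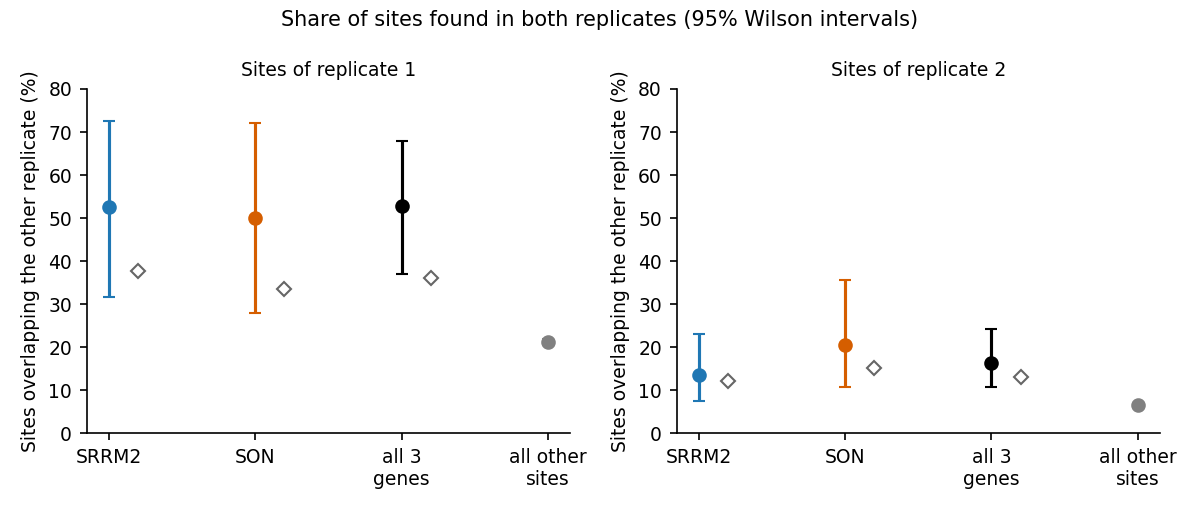
Share of sites that overlapped a site of the other replicate (percent, with 95% Wilson intervals), for sites of replicate 1 left and replicate 2 right. Open diamonds give all sites outside the 3 genes weighted to the same score classes, which were 36.0% and 13.1% for the 3 genes together, and the grey point gives all other sites unweighted. The weighting does not cover the density of sites.

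The distance of sites without overlap to the nearest site of the other list differed between replicates. Of the 17 such sites of replicate 1, 10 had a replicate 2 site within 50 nt (58.8%, against 12.7% of such sites over the whole list) and all 17 within 1000 nt (against 40.7%), with a median distance of 41 nt. In SRRM2 the site of replicate 1 at 2816173 to 2816190, with a score of 523, lay 6 nt from a replicate 2 site of score 92. Of the 97 sites of replicate 2 without overlap, 19 had a replicate 1 site within 50 nt (19.6%, against 4.41% over the whole list) and 80 within 1000 nt (82.5%, against 24.6%), with a median distance of 326 nt. Sites of replicate 2 covered 14.2% and 10.1% of the bases of the SRRM2 and SON stretches, and the part of this density in the closeness was not tested.

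The edges of overlapping sites were compared next. Among the 19 pairs on the 3 genes, 7 had starts within 2 nt of each other (36.8%) and 7 had ends within 2 nt (36.8%), against 41.1% and 45.5% of the 1862 plus-strand pairs of the lists. No pair had the same start and 5 had the same end.

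Scores of the pairs varied widely between replicates. Over the 19 pairs, the log2 ratio of scores (replicate 2 over replicate 1) was -0.18 at the median with an SD of 1.68, against -0.21 with an SD of 1.37 over all 3621 pairs. It was -0.07 in SRRM2, -0.24 in SON and -1.2 at the SRRM1 site. Scores were more than 4-fold apart in 7 of the 19 pairs (36.8%), against 12.3% of all pairs. Spearman's rho between the scores was 0.26 and Pearson's r of their log10 values 0.46, against 0.68 and 0.76 over all 3621 pairs. Scores of the 19 pairs ran from 16 to 1337 in replicate 1 and from 26 to 1213 in replicate 2. The whole lists reached 1560568 and 702704. A narrower range of scores can lower a correlation by itself, and its part was not tested. The correlations run across few pairs of 2 libraries that share transcripts, so they are descriptions only. Each library gave 1 value per pair, so no score difference was tested.

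**Figure D5:**
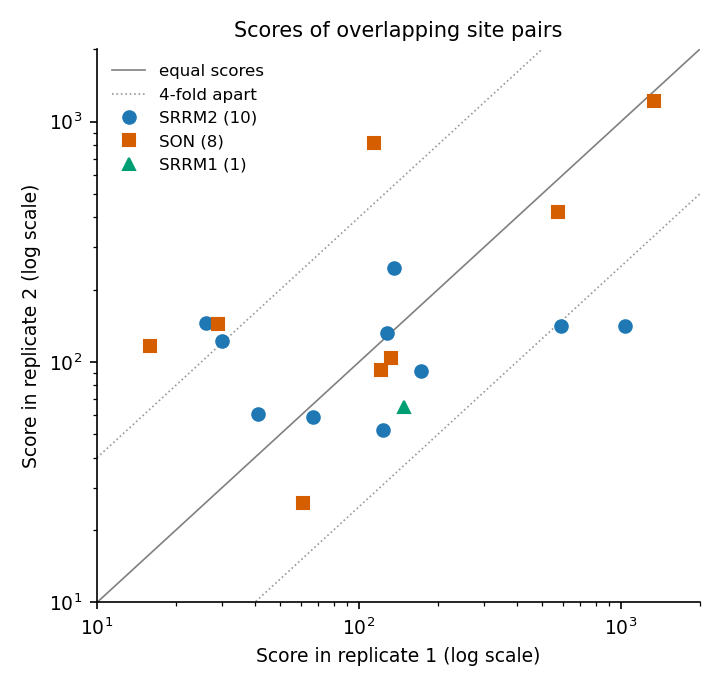
Score in replicate 2 against score in replicate 1 for the 19 overlapping pairs (both axes log), by gene. The solid line marks equal scores and the dotted lines a 4-fold difference, beyond which 7 pairs lie, 4 from SRRM2 and 3 from SON.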

How the data were processed

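Each replicate has a list of sites without a header, with chromosome, start, end, name, score and strand. The deposited score is a whole number per site, made by the authors in a way no source here describes, so read depth is unknown. Per the submitters' processing notes, bcl2fastq, Bowtie 1.1.2 and hg19 were used; the site caller, its thresholds and the treatment of reads with several matches, which matters in repeats, are not stated. The largest site end on chromosome 1, 249168105, lies beyond the last GRCh38 feature, 248937043. Positions are hg19, counted from 1, and were not converted. Planned results on exons and on other speckle genes were not run for want of an hg19 annotation. Exon lengths and codons come from GENCODE 29 transcripts.

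Overlap, stretches and windows were computed in Python 3.11.15 (numpy 2.4.6, pandas 2.3.3, scipy 1.17.1); overlap detection was tested on simulated data. A site belonged to the 1 kb window that held its midpoint. Score classes began at 5, 10, 20, 50, 100, 200, 500 and 1000. Intervals are 95% Wilson intervals and cover counting error only; PCR over 18 cycles makes reads non-independent. The samples form 1 group, their titles number them as replicates 1 and 2, and no test was made. Named sites are all overlapping pairs and the 3 strongest sites per gene and list. The members, lists and stretches were chosen with earlier results of these data known. Alternatives changed the overlap, the score limit, the interval edges, the window size and the gap between stretches.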

Additional observations from a re-analysis of the deposited data

How the results depend on the processing

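Of 76 alternatives run, 61 left the value within its interval, its spread or 1.5-fold of the count reported. Among the 61 are the shares with 1 replicate left out. With 2 replicates these always lie within the SD of their mean, so they could not move and show nothing about stability. With replicate 2 limited to its 16964 highest scores, SON had 23 sites there and SRRM2 50. Leaving out the 10 strongest sites of each list raised the share of score to 0.19% for SRRM2, 0.15% for SON and 0.00627% for SRRM1, since the sums became smaller. Allowing gaps of up to 50 nt raised the overlapping share of replicate 1 and replicate 2 sites to 80.6% and 32.8% for the 3 genes, 84.2% and 31.1% for SRRM2 and 75.0% and 35.9% for SON. Requiring 50% of both sites gave 41.7% and 12.9% for the 3 genes. In 2 kb windows the densest held 24.3% of SRRM2 sites of replicate 2, as wider windows hold more. Splitting stretches at 2 kb joined most of SRRM2, with 94.7% and 94.6% of its sites. Splitting at 0.5 kb left the SRRM2 stretch as it was. It cut the SON stretch to 3009 nt, with 37.5% of SON sites in replicate 1 and 46.2% in replicate 2. The SRRM2 stretch drawn from replicate 1 alone held 36.8% of its sites, so the stretch of 6680 nt rests on replicate 2. These splits were chosen after seeing the data. With 1 replicate left out, a share is simply that of the other replicate. For SRRM2, SON and SRRM1 the share of sites was thus 0.112% to 0.133%, 0.0699% to 0.0943% and 0.00537% to 0.00589%. The share of score was 0.0865% to 0.108%, 0.0583% to 0.102% and 0.00278% to 0.0037%. No paired analysis was possible because both samples belong to 1 group. The share of sites in the long exons, and its alternative with wider exons, was not run for want of an hg19 annotation. With read depth not known, its effect on the weaker sites was not tested.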

Other observations

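Site names in both lists hold a group number that grows along each strand, and sites close together can share one; what the groups are is not stated. The numbers reach 248010 in replicate 1 and 235517 in replicate 2, so they are of like size although the lists are not, and 6.75% and 22.2% of the numbers hold a listed site. On SRRM2 the numbers between the first and the last site span 93 in replicate 1 and 96 in replicate 2, of which 17 and 48 hold a site. Within the dense stretch of SRRM2 they span 47 and 51, of which 11 and 29 hold a site, and within that of SON 25 and 30, of which 7 and 17 do. Over the whole SON interval the spans were less alike, 57 and 75, of which 16 and 30 hold a site, and on SRRM1 they were 1 and 11.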
